A study of Mus musculus with 4 samples.

Results

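Antioxidant enzymes and target genes of the transcription factor Nrf2 were followed in stromal cells of the mouse prostate. The set holds 10 genes of fixed names (Hmox1, Nqo1, Gclc, Gclm, Txnrd1, Srxn1, Sod1, Sod2, Sod3 and Gpx3), out of 25744 genes to which the deposited transcripts could be assigned by position. All 10 were found, and all 10 were among the 11271 genes abundant enough to be tested. The cells came from adult C57BL/6 mice and were isolated by fluorescence-activated sorting for Sca-1, with cells bearing lineage markers, CD24 or CD49f gated out. Proximal libraries hold cells of the ducts near the urethra and distal libraries cells of the outer ducts, with 2 libraries per region, numbered 2 and 3 in both (proximal 2, proximal 3, distal 2 and distal 3). The mice carried no named allele and received no named agent, and the labels give neither their age beyond adult nor how many animals were pooled. No label says that the libraries came from separate animals, so each p-value reflects the spread between libraries alone, and that spread may be technical. The regions were compared to identify signalling in the stroma.

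Nrf2, encoded by Nfe2l2, is the main transcriptional regulator of the response to oxidants and electrophiles. In unstressed cells Keap1 delivers it to the Cul3 ubiquitin ligase for degradation. When Keap1 is modified by an electrophile, Nrf2 accumulates, pairs with a small Maf protein and binds antioxidant response elements, which Bach1 occupies as a repressor. The genes it drives make glutathione, keep thioredoxins and peroxiredoxins reduced, degrade haem and reduce quinones. The superoxide dismutases and glutathione peroxidases remove superoxide and peroxides directly, and several of them are also driven by other factors, Sod2 for example by NF-kB.

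Levels are FPKM, fragment numbers scaled to transcript length and to the fragments mapped in the library, summed per gene, so that levels of different genes can be compared per length. Differences are proximal minus distal on the log2(FPKM + 1) scale, which understates the change of low genes. In bulk RNA, fewer cells that express a gene and less RNA of it per cell cannot be told apart. Between 10154 and 11462 genes reached 1 FPKM per library. Libraries of the same number were more alike than libraries of the same region. Pearson's r across genes was 0.952 between proximal 2 and distal 2 and 0.952 between proximal 3 and distal 3, against 0.869 between the proximal and 0.911 between the distal libraries. No label says what the number stands for. Where a region's values are given as a pair, number 2 comes before number 3. Of 7 fibroblast markers all were detected, with summed levels of 5956 and 5885 FPKM in proximal and 5610 and 4743 FPKM in distal libraries. Ly6a, which is among them and encodes the sort marker Sca-1, ranged from 687 to 1016 FPKM. The 5 smooth muscle markers summed to 271 and 134 FPKM in proximal libraries, against 305 and 184 FPKM in distal libraries. Transcripts of the markers selected against were low for Itga6 (CD49f, up to 1.34 FPKM), Pecam1 (up to 1.56 FPKM) and Ptprc (up to 0.120 FPKM). Cd24a stood at 8.06 and 54.6 FPKM in proximal libraries, against 9.64 and 19.1 FPKM in distal libraries. All 8 epithelial markers were detected too. Their summed level was 58.6 FPKM in proximal 2 and 439 FPKM in proximal 3, against 40.0 FPKM in distal 2 and 99.5 FPKM in distal 3, highest in proximal 3.

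Promoter sequence is shown for Txnrd1 and Srxn1, because the first has several annotated starts of which the libraries used one, and the second holds AP-1 matches besides one to the antioxidant response element. The sequences are RefSeq promoter windows of the GRCm38.p6 build, 250 bases up to the base before the start, plus strand, with motif matches in capitals. The Txnrd1 window is chr10:82858956-82859205 and the Srxn1 window chr2:152105274-152105523.
Txnrd1: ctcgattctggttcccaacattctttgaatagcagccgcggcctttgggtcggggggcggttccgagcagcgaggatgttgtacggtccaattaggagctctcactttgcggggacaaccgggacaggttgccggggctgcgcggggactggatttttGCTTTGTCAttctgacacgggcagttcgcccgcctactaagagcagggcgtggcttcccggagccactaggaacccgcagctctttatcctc
Srxn1: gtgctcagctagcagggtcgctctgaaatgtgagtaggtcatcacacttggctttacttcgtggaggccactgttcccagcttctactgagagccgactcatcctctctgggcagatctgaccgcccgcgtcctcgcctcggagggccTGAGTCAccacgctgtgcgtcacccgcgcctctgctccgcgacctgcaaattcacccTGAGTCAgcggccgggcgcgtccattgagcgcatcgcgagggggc
A pair of motifs was searched on both strands of windows reaching 50 bases past the start, the core antioxidant response element TGACNNNGC and the AP-1 site TGACTCA. Windows were given for 7 of the 10 genes (9 windows), with none for Hmox1, Gclc and Sod3. The core element was found in 4 of the 9 windows, those of Txnrd1, Srxn1, Gclm and Sod1, against 12.4% of all 32851 windows. Each match lay on the minus strand. The match in Txnrd1 began 92 bases before the start (GCTTTGTCA), that in Gclm 134 bases before it (GCACCGTCA), that in Sod1 56 bases before it (GCGTGGTCA) and that in Srxn1 28 bases after it (GCTAGGTCA). The AP-1 site was found in the Srxn1 window alone among the 9, at 102 and 45 bases before the start, against 5.2% of all windows. No match of one motif overlapped a match of the other in these windows, by the exact letters searched. In Srxn1 the AP-1 match 45 bases before the start is followed by GC. The stretch TGAGTCAGC differs from the core element only by a G in place of the C. A match describes letters and is not a measured binding site.

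Across the 10 genes, 0 passed the test of proximal against distal stroma at an adjusted p under 0.05 (limma over all 11271 genes), as did 0% of all genes in either direction. At an unadjusted p under 0.05 there were 2 members (3.16% of all genes), both with higher proximal values, Sod3 and Nqo1 (2.25% of all genes), and 0 with lower proximal values (0.905% of all genes). The regions did not overlap for 4 members (21.6% of all genes): the proximal pair lay above the distal pair for Sod3 and Nqo1 (12.9% of all genes) and below it for Sod2 and Gpx3 (8.64% of all genes). Within both numbers the proximal library was at least 2-fold higher for 2 members (Sod3 and Nqo1, 1.9% of all genes) and the distal library for 1 (Sod2, 0.772% of all genes). The adjusted p was 0.99991 for every member but Sod3. The difference was positive for 4 members (60.4% of all genes) and negative for 6 (39.6% of all genes). The median difference of the 10 genes was -0.11 on the log2 scale, against 0.09 for all tested genes. Quantile normalization and median ratio scaling moved the median of all genes to -0.03 and 0.02 and turned no member's direction. With 2 libraries per region an exact permutation test cannot give a two-sided p below 0.333.

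**Figure D1:**
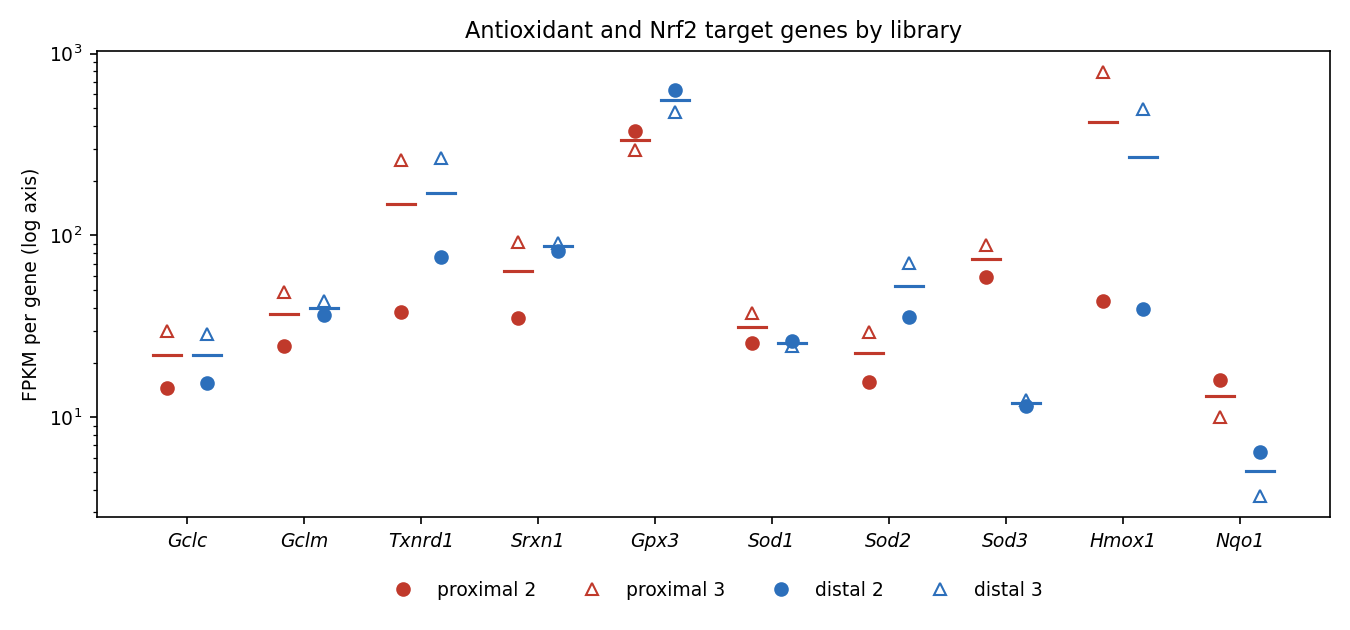
Level of each of the 10 genes in FPKM (log axis) in the 2 proximal (red) and 2 distal (blue) libraries, with circles for number 2, triangles for number 3 and short lines for the region means. Sod3 and Nqo1 lie higher in both proximal libraries, and Sod2 and Gpx3 lie lower in both. The points of Hmox1 and Txnrd1 separate most by number, and those of Gclc, Gclm and Srxn1 separate by number to a lesser extent.

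None of the 3 superoxide dismutases passed the test between regions, though Sod3 had higher and Sod2 lower values in both proximal libraries. Sod3, the secreted enzyme that binds the extracellular matrix, stood at 58.8 FPKM in proximal 2 and 89.0 FPKM in proximal 3, against 11.6 FPKM in distal 2 and 12.5 FPKM in distal 3. Both proximal values lay well above both distal values, 5.09-fold within number 2 and 7.13-fold within number 3. Proximal stroma averaged 73.9 ± 21.3 FPKM and distal stroma 12.02 ± 0.642 FPKM (SD, n = 2 per region). The fitted log2 difference was 2.50 ± 0.36 (SE). The unadjusted p was 0.000817, rank 17 of 11271 genes, and the adjusted p was 0.497 (limma), so the difference did not pass the test. The deposited bounds of the full-length transcript were 55.6 to 62.1 FPKM in proximal 2 and 84.5 to 93.5 FPKM in proximal 3, against 10.5 to 12.6 FPKM in distal 2 and 7.25 to 8.91 FPKM in distal 3. In distal 3 a single-exon transcript of 756 bases inside the gene took another 4.39 FPKM, and it was listed at 0 in the other libraries. Sod3 lies on chromosome 5 at 52363791 to 52371418 (plus strand, mm10).

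Epithelial markers also had higher proximal values, by all 8 fitted differences (60.4% of all genes; 7 under quantile normalization). Only 1 of them, Krt19, lay higher in both proximal libraries than in both distal ones (12.9% of all genes). The part of these markers in the differences of Sod3 and, described after it, Nqo1 was not tested. Their sum was 58.6 FPKM in proximal 2 against 40.0 FPKM in distal 2, where Sod3 differed 5.09-fold, and 439 FPKM in proximal 3 against 99.5 FPKM in distal 3, where Sod3 differed 7.13-fold.

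Sod2, the mitochondrial manganese enzyme, stood at 15.7 FPKM in proximal 2 and 29.5 FPKM in proximal 3, against 35.5 FPKM in distal 2 and 70.2 FPKM in distal 3. Both proximal libraries lay below both distal ones, and within each number the distal library was 2.26-fold (number 2) and 2.38-fold (number 3) higher. The log2 difference was -1.17 ± 0.51 (SE, unadjusted p = 0.0659, adjusted p = 0.99991, limma), or -0.69 without distal 3 and -0.74 without proximal 2. A transcript of 3824 bases carried 86.6% of the level in proximal 2 and 100% in the other 3 libraries. A longer form reaching 13040063 on chromosome 17 was estimated at 2.11 FPKM in proximal 2 and listed at 0 elsewhere. Sod2 lies at 13006846 to 13040063 (plus strand) of that chromosome.

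Sod1, the cytosolic copper and zinc enzyme, stood at 25.5 and 37.4 FPKM in proximal libraries, against 26.2 and 24.8 FPKM in distal libraries. The regions overlapped, with a log2 difference of 0.27 ± 0.36 (SE), or 0.0037 without proximal 3. Sod1 lies on chromosome 16 at 90220754 to 90226329 (plus strand). Part of each value, from 3.59% to 11.7%, was assigned to an unspliced form of 3387 bases, and the Sod1 locus overlaps Scaf4 on the other strand, which these unstranded libraries cannot separate. Ccs, the chaperone that loads copper into Sod1, stood at 27.6 and 15.8 FPKM in proximal libraries, against 17.3 and 9.002 FPKM in distal libraries. Ccs was higher in proximal stroma within each number, with overlapping regions. Atp7a, the copper pump that supplies secreted enzymes such as Sod3, stood at 17.3 and 15.7 FPKM in proximal libraries, against 23.7 and 32.8 FPKM in distal libraries, so both proximal values lay below both distal ones.

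As a share of the 3 dismutases, Sod3 was 58.8% and 57.1% of their summed FPKM in proximal 2 and proximal 3, against 15.8% and 11.6% in distal 2 and distal 3. Sod2 was 15.7% and 18.9% of the sum in the proximal libraries, against 48.4% and 65.3% in the distal libraries. Sod3 was thus the most abundant of the 3 transcripts in both proximal libraries and Sod2 in both distal libraries. The sum itself was 100.07 and 156 FPKM in proximal libraries, against 73.2 and 107 FPKM in distal libraries, and overlapped between regions.

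**Figure D2:**
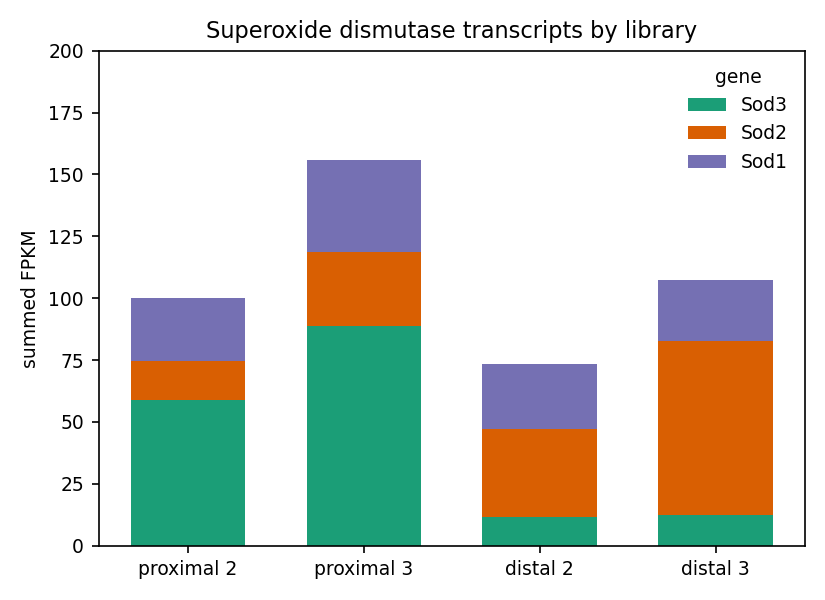
Summed FPKM of Sod3, Sod2 and Sod1 in each library, stacked from the bottom in that order. Sod3 fills 58.8% and 57.1% of the proximal bars and 15.8% and 11.6% of the distal bars.

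NF-kB response genes, among which Sod2 is known to be counted in many cell types, also had lower proximal values. The list of these genes, like the other lists, was chosen with earlier results of these data known. Its counts are therefore no independent evidence. Of 11 NF-kB response genes tested, 10 had a negative (39.6% of all genes) and 1 a positive difference. The median was -0.82 against 0.09 for all genes, and 8 genes lay lower in both proximal libraries (8.64% of all genes). None passed over all genes (0 of 11 by limma, 3 at an unadjusted p under 0.05, 3.16% of all genes). The chemokine Ccl2 stood at 284 and 693 FPKM in proximal libraries, against 1261 and 2207 FPKM in distal libraries. Cxcl1, a neutrophil-attracting chemokine, stood at 120 and 309 FPKM in proximal libraries, against 400 and 1095 FPKM in distal libraries. Both lay lower in the proximal libraries, as did Nfkbia, the inhibitor induced by NF-kB itself, at 538 and 503 FPKM against 971 and 872 FPKM in distal libraries. The subunit gene Nfkb2 stood at 34.6 and 80.0 FPKM in proximal libraries, against 87.0 and 153.7 FPKM in distal libraries, its regions separated by a small margin. The part of NF-kB in the Sod2 difference was not tested.

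Gpx3, the secreted selenium-dependent glutathione peroxidase known from plasma, was the most abundant member on average. It stood at 374 FPKM in proximal 2 and 295 FPKM in proximal 3, against 635 FPKM in distal 2 and 480 FPKM in distal 3. Both proximal values lay below both distal values, and the distal library was 1.70-fold (number 2) and 1.63-fold (number 3) higher. The log2 difference was -0.73 ± 0.34 (SE, unadjusted p = 0.0811, adjusted p = 0.99991, limma). Its bounds did not overlap between any pair of libraries (290 to 301 FPKM in proximal 3 and 368 to 380 FPKM in proximal 2, against 473 to 486 FPKM in distal 3 and 627 to 643 FPKM in distal 2), but these bounds cover the estimation within a library only. Gpx3 lies on chromosome 11 at 54902453 to 54910377 (plus strand).

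Other peroxide-removing enzymes went both ways. Of 11 tested, 6 had higher (60.4% of all genes) and 5 lower proximal values (39.6%), with a median of 0.15 and 0 passing. Gpx1, the cytosolic glutathione peroxidase, stood at 393 and 359 FPKM in proximal libraries, against 537 and 495 FPKM in distal libraries, and like Gpx3 lay lower in both proximal libraries. Gpx4, which reduces lipid peroxides in membranes, stood at 37.0 and 54.1 FPKM in proximal libraries, against 28.7 and 36.4 FPKM in distal libraries. Prdx5 stood at 62.4 and 52.0 FPKM in proximal libraries, against 37.6 and 29.7 FPKM in distal libraries. Gpx4 and Prdx5, both peroxidases, lay higher in both proximal libraries, Gpx4 by a small margin (37.0 FPKM in proximal 2 against 36.4 FPKM in distal 3). Prdx1, a peroxiredoxin driven by Nrf2, stood at 115 and 211 FPKM in proximal libraries, against 131 and 190 FPKM in distal libraries. Selenop, the secreted carrier of selenium, stood at 263 and 164 FPKM in proximal libraries, against 352 and 269 FPKM in distal libraries. Prdx1 overlapped between regions. Selenop lay lower in both proximal libraries, as did Gpx3, but by a small margin (263 FPKM in proximal 2 against 269 FPKM in distal 3).

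Nqo1, which reduces quinones and is a standard readout of Nrf2, stood at 16.0 FPKM in proximal 2 and 10.1 FPKM in proximal 3, against 6.44 FPKM in distal 2 and 3.68 FPKM in distal 3. It was the member with the lowest mean level, and both proximal values lay above both distal ones, by 2.49-fold within number 2 and 2.74-fold within number 3. Proximal stroma averaged 13.1 ± 4.204 FPKM and distal stroma 5.06 ± 1.95 FPKM (SD, n = 2 per region), with a log2 difference of 1.22 ± 0.47 (SE, unadjusted p = 0.0466, adjusted p = 0.99991, limma). Its direction across numbers was opposite to that of Hmox1 and Txnrd1: Nqo1 was lower in the library numbered 3 within both regions. Nqo1 lies on chromosome 8 at 107388225 to 107403206 (minus strand).

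**Figure D3:**
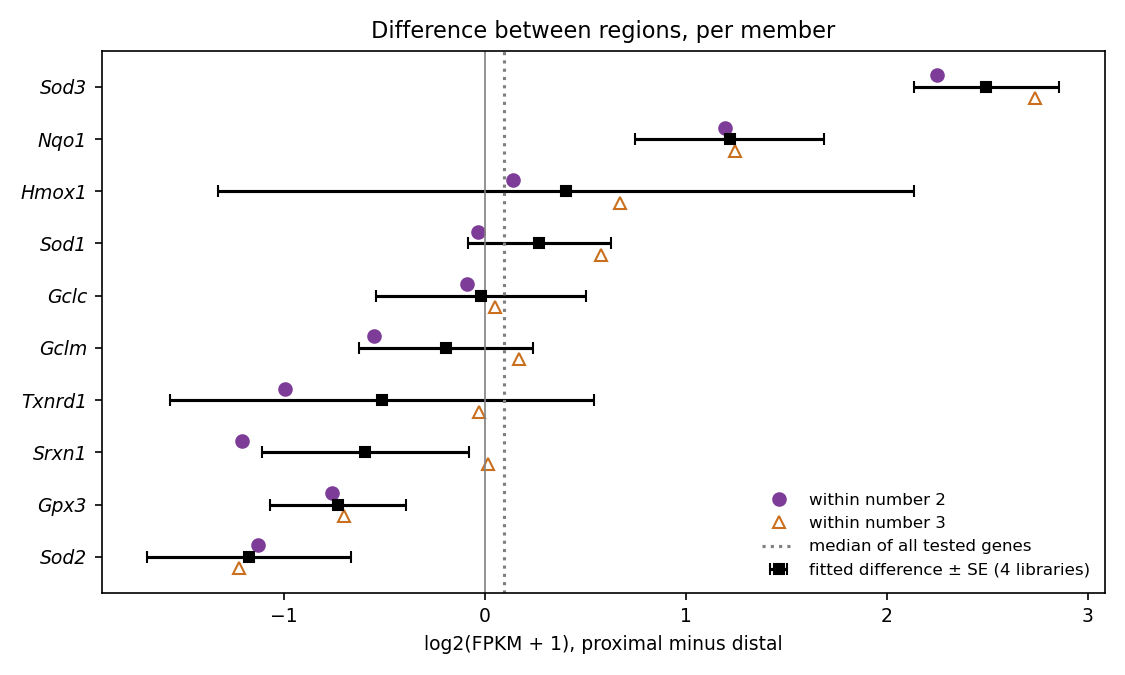
Difference of log2(FPKM + 1), proximal minus distal, for each member: squares are the fitted difference with its SE, circles the difference within number 2 and triangles that within number 3. Sod3 (2.25 and 2.74), Nqo1 (1.19 and 1.24), Gpx3 (-0.76 and -0.70) and Sod2 (-1.13 and -1.22) gave similar differences within both numbers, while Srxn1 (-1.21 and 0.02) did not.

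Hmox1, which encodes the inducible haem oxygenase, differed far more between the numbers than between the regions. It stood at 43.3 FPKM in proximal 2 and 793 FPKM in proximal 3, against 39.3 FPKM in distal 2 and 498 FPKM in distal 3. Both libraries numbered 3 were high and both numbered 2 were low, an 18.3-fold difference in proximal and a 12.7-fold difference in distal stroma. By the mean difference of number 3 minus number 2, Hmox1 ranked 15 of 11271 genes in size. Between regions the log2 difference was 0.40 ± 1.73 (SE, adjusted p = 0.99991, limma), so its error exceeded it several times over, and it turned to -1.68 without proximal 3 and -1.41 without distal 2. Hmox1 lies on chromosome 8 at 75093621 to 75100589 (plus strand), and all of its signal came from 1 deposited transcript.

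Macrophages are a known site of high Hmox1. Of 8 leukocyte and macrophage markers 3 were abundant enough to be tested, Cd14 at 4.399 to 7.06 FPKM, Cd68 at 0.749 to 1.87 FPKM and Lyz2 at 0.761 to 1.39 FPKM over the 4 libraries. Cd163 was listed at 0 in all 4 libraries, Adgre1 did not exceed 0.0470 FPKM and C1qa did not exceed 0.0989 FPKM. The summed level of the 8 was 6.83 FPKM in proximal 2 and 10.5 FPKM in proximal 3, against 7.30 FPKM in distal 2 and 8.74 FPKM in distal 3, most of it from Cd14. That sum and the epithelial marker sum were higher in number 3 within both regions, and their part in the Hmox1 difference was not tested.

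Txnrd1, the cytosolic thioredoxin reductase, also separated by number. It stood at 37.9 FPKM in proximal 2 and 261 FPKM in proximal 3, against 76.4 FPKM in distal 2 and 266 FPKM in distal 3. Number 3 exceeded number 2 by 6.88-fold in proximal and 3.49-fold in distal stroma, while the log2 difference between regions was -0.51 ± 1.05 (SE) and turned to 0.87 without proximal 2 and 0.38 without distal 3. Txnrd1 lies on chromosome 10 at 82833951 to 82897712 (plus strand). Of 5 transcripts deposited for this gene, the 2 that begin at 82859206 on chromosome 10, directly after the promoter window printed for it, carried all the signal. The forms beginning at 82833951 and 82860341 and a short internal one were listed at 0 in all libraries. Between the 2 expressed forms the longer, of 3417 bases, made up 61.2% and 69.7% of the gene in proximal 2 and proximal 3, against 64.7% and 71.1% in distal 2 and distal 3. Cufflinks divides fragments between such overlapping forms, so these shares are estimates.

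Hmox1 and Txnrd1 were the 2 members at least 2-fold higher in number 3 within both regions, against 3.47% of all genes, and 0 members were at least 2-fold lower, against 11.5% of all genes. By direction alone, 7 members were higher in number 3 within both regions and 2 lower, against 25.5% and 59.1% of all genes. The median of number 3 minus number 2 was 0.68 for the 10 members and -0.33 for all tested genes. These comparisons between numbers carry no test.

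**Figure D4:**
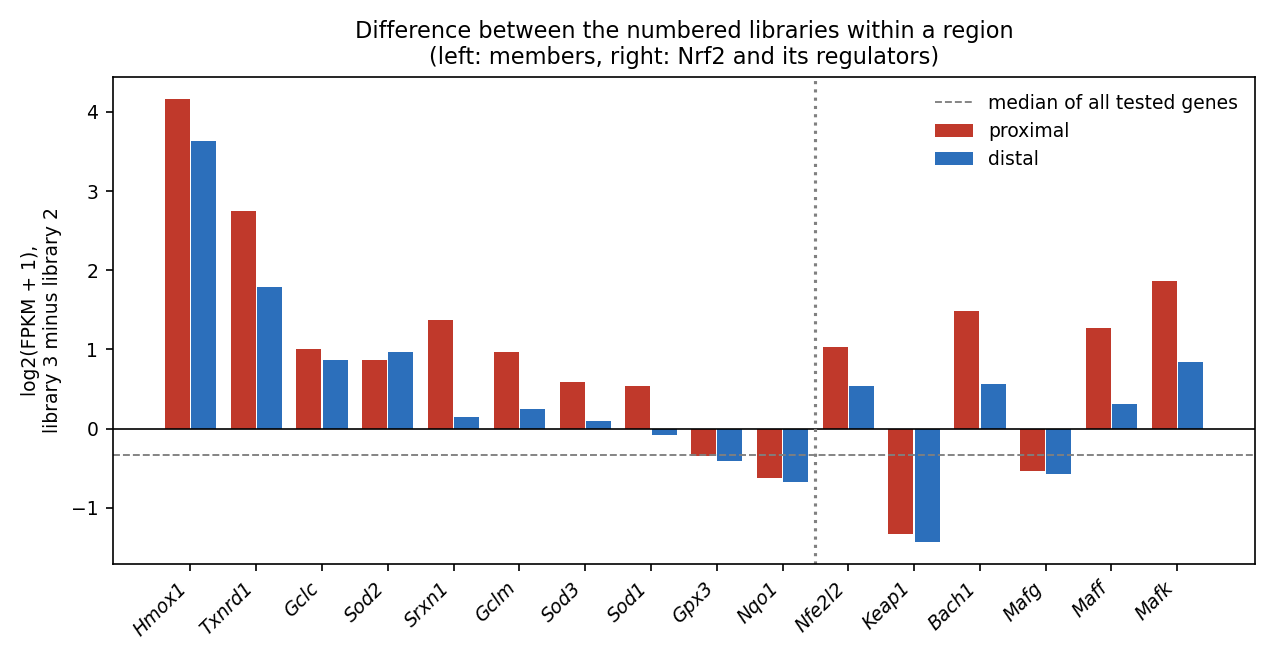
Difference of log2(FPKM + 1) between the library numbered 3 and the library numbered 2 within proximal (red) and distal (blue) stroma, for the 10 members (left) and for Nrf2 and 5 of its regulators (right). Hmox1 reaches 4.16 in proximal and 3.63 in distal stroma, Keap1 lies at -1.34 and -1.43, and the dashed line marks the median of all tested genes at -0.33.

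Srxn1 encodes sulfiredoxin, which rescues overoxidised peroxiredoxins. It stood at 35.2 FPKM in proximal 2 and 92.6 FPKM in proximal 3, against 82.5 FPKM in distal 2 and 91.5 FPKM in distal 3. The proximal 2 library was low and the other 3 were alike. The log2 difference of -0.59 ± 0.52 (SE) rested on that library: without it the value was 0.092. Srxn1 lies on chromosome 2 at 152105516 to 152111376 (plus strand), and its printed promoter holds 2 AP-1 matches. Immediate early genes, AP-1 subunits among them, and heat shock genes are of the kind induced by tissue dissociation. Of 14 such genes 12 had higher proximal values (60.4% of all genes), and 13 did under quantile normalization. Their median was 0.75, and 0 passed (limma, 2 at an unadjusted p under 0.05, 3.16% of all genes). Their summed level was 23496 and 16369 FPKM in proximal libraries, against 18360 and 9746 FPKM in distal libraries. It was highest in proximal 2, where Srxn1 was lowest, and next highest in distal 2, where Srxn1 stood at 82.5 FPKM. Fos stood at 3311 and 1399 FPKM in proximal libraries, against 2084 and 519 FPKM in distal libraries. Hspb1, a small heat shock protein, stood at 297 and 721 FPKM in proximal libraries, against 179 and 207 FPKM in distal libraries. Their part in the values of Srxn1 was not tested.

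Gclc and Gclm encode the catalytic and the modifier subunit of glutamate-cysteine ligase, which makes the first and limiting step of glutathione synthesis. Gclc stood at 14.4 FPKM in proximal 2 and 29.9 FPKM in proximal 3, against 15.4 FPKM in distal 2 and 28.8 FPKM in distal 3. Values followed the number, at 2.07-fold in proximal and 1.88-fold in distal stroma, and the regions were nearly equal, with a log2 difference of -0.02 ± 0.52 (SE) that turned to 0.48 without proximal 2 and 0.41 without distal 3. Gclm stood at 24.6 and 49.1 FPKM in proximal libraries, against 36.6 and 43.5 FPKM in distal libraries, a log2 difference of -0.19 ± 0.43 (SE) that turned to 0.29 without proximal 2. The modifier exceeded the catalytic subunit in each library, by a ratio of 1.71 and 1.64 in proximal libraries, against 2.38 and 1.51 in distal libraries. A pair of non-coding annotations, Gm17494 on the other strand and Gm6061, overlap the Gclm locus, which spans 122245557 to 122270732 on chromosome 3, while Gclc spans 77754535 to 77794485 on chromosome 9 (both plus strand).

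Nrf2 and its regulators showed no call between regions (0 of 11 tested, 0 at an unadjusted p under 0.05, limma). Nfe2l2 stood at 61.6 FPKM in proximal 2 and 127 FPKM in proximal 3, against 82.8 FPKM in distal 2 and 121 FPKM in distal 3, higher in number 3 within both regions. Keap1 stood at 15.1 and 5.39 FPKM in proximal libraries, against 10.9 and 3.43 FPKM in distal libraries, lower in number 3 within both. Bach1 stood at 4.15 and 13.5 FPKM in proximal libraries, against 9.92 and 15.2 FPKM in distal libraries. Cul3, the ligase scaffold, stood at 34.1 and 13.5 FPKM in proximal libraries, against 51.3 and 13.1 FPKM in distal libraries, and was lower in number 3 like Keap1. Of the 11 regulators 5 were higher in number 3 within both regions (25.5% of all genes) and 5 lower (59.1% of all genes). Among the small Maf partners, Mafk stood at 117 and 431 FPKM in proximal libraries, against 145 and 261 FPKM in distal libraries, and Maff at 67.0 and 162 FPKM, against 94.3 and 117 FPKM. Mafg ran the other way between numbers, at 39.5 and 26.9 FPKM in proximal libraries, against 57.0 and 38.1 FPKM in distal libraries. Sqstm1, the autophagy adaptor p62 that binds Keap1, stood at 753 and 1361 FPKM in proximal libraries, against 1127 and 1740 FPKM in distal libraries.

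The wider pathway was read from 10 lists with 118 genes, of which 101 were tested. None passed (0 by limma), and 5 had an unadjusted p under 0.05 (3.16% of all genes). Proximal values were higher for 72 (60.4% of all genes) and lower for 29 (39.6% of all genes; 66 and 35 under quantile normalization or median ratio scaling), and the median was 0.25 against 0.09 for all genes. Both proximal libraries lay above both distal ones for 25 of the 101 (12.9% of all genes) and below them for 5 (8.64%).

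All 5 genes at an unadjusted p under 0.05 had higher proximal values, and 4 of them were glutathione transferases, enzymes that couple glutathione to electrophiles. In that list 12 of 14 tested genes had higher proximal values (60.4% of all genes), with a median of 0.49. Of the 14 genes 7 lay higher in both proximal libraries (12.9% of all genes). Gsta4, known for clearing the lipid aldehyde hydroxynonenal, stood at 14.2 and 25.8 FPKM in proximal libraries, against 1.12 and 1.30 FPKM in distal libraries, a log2 difference of 3.20 ± 0.47 (SE, adjusted p = 0.497, limma). Gsta3 stood at 21.4 and 30.9 FPKM in proximal libraries, against 3.81 and 1.36 FPKM in distal libraries, and Gstt1 at 64.4 and 71.7 FPKM, against 23.4 and 12.9 FPKM. Mgst3, a membrane-bound relative, stood at 7.74 and 9.34 FPKM in proximal libraries, against 3.05 and 2.64 FPKM in distal libraries. These 4, picked by their unadjusted p for the same difference, lay higher in both proximal libraries (12.9% of all genes). That selection made such a separation likely beforehand. The most abundant transferases were more even, with Gstm1 at 233 and 276 FPKM in proximal libraries, against 209 and 168 FPKM in distal libraries, and Gstm5 at 144 and 113 FPKM, against 164 and 122 FPKM. Similar transferase genes share sequence, so their separate values are uncertain. The epithelial marker sum also stood higher in the proximal library within each number, and its part in these differences was not tested. The fifth gene was Aldh3a1, an aldehyde dehydrogenase, at 10.2 and 19.9 FPKM in proximal libraries, against 3.19 and 1.78 FPKM in distal libraries.

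**Figure D5:**
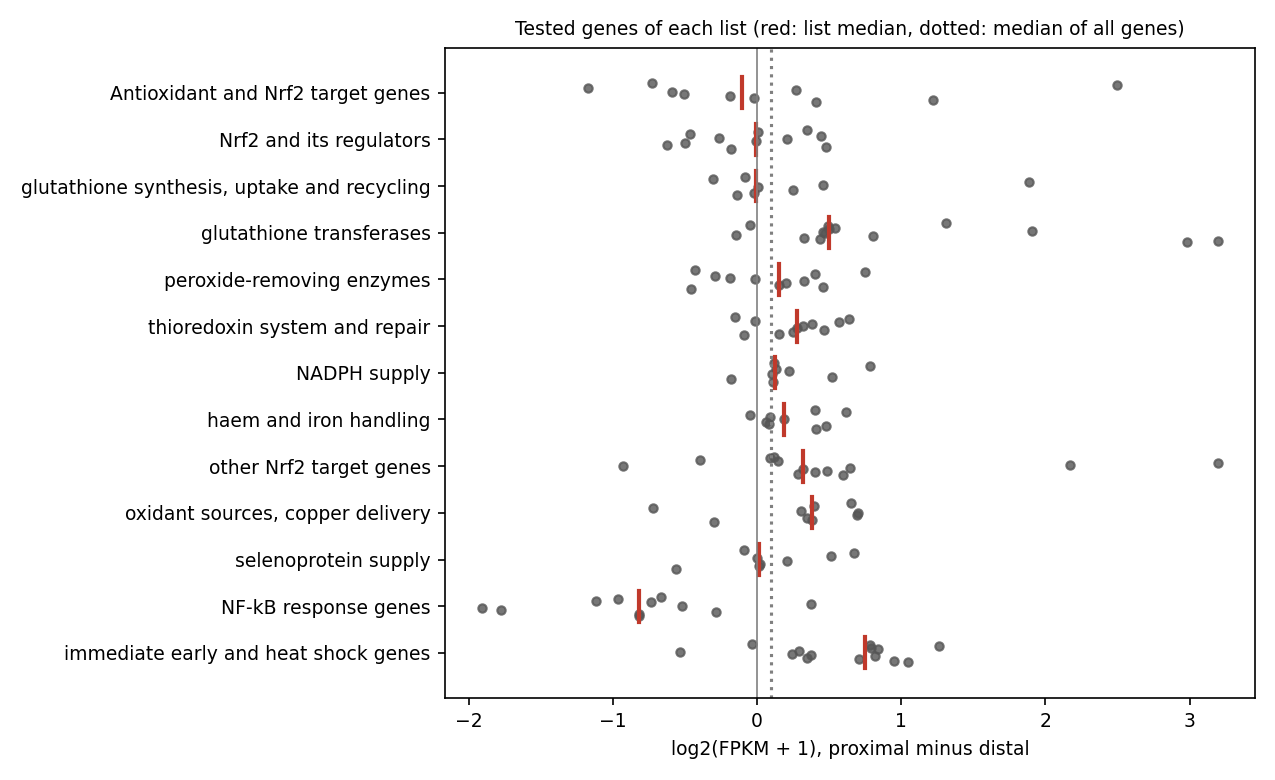
Differences of log2(FPKM + 1), proximal minus distal, for the tested genes of each list, with the list median in red and the median of all tested genes (0.09) as a dotted line. The glutathione transferases have a median of 0.49, the NF-kB response genes one of -0.82 and the 10 members one of -0.11.

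The other lists of the pathway had medians below that of the transferases. Of 8 tested genes of glutathione synthesis, uptake and recycling, 4 had higher (60.4% of all genes) and 4 lower proximal values (39.6%). These counts were 3 and 5 under quantile normalization or median ratio scaling. Chac1, which degrades glutathione, had the largest difference of that list and stood at 0.729 and 29.3 FPKM in proximal libraries, against 0.167 and 2.30 FPKM in distal libraries, so 1 library set its proximal mean. Slc3a2, the partner chain of the cystine carrier, stood at 127 and 447 FPKM in proximal libraries, against 200.4 and 346 FPKM in distal libraries, while Slc7a11, the carrier itself, did not exceed 1.80 FPKM. Glrx, the glutathione-dependent oxidoreductase glutaredoxin, stood at 29.2 and 49.9 FPKM in proximal libraries, against 37.5 and 60.2 FPKM in distal libraries, and Ggct, which acts in glutathione breakdown, did not exceed 3.95 FPKM. Of 11 tested thioredoxin system genes 8 had higher proximal values (60.4% of all genes). Txn1 itself stood at 56.1 and 104 FPKM in proximal libraries, against 70.8 and 94.0 FPKM in distal libraries. Its inhibitor Txnip stood at 115 and 27.5 FPKM in proximal libraries, against 70.1 and 23.5 FPKM in distal libraries, lower in number 3 within both regions. The methionine sulfoxide reductases Msra and Msrb2 repair oxidised protein. Msra stood at 10.1 and 7.15 FPKM in proximal libraries, against 6.13 and 4.75 FPKM in distal libraries, higher in both proximal ones. Msrb2 stood at 12.03 and 4.26 FPKM in proximal libraries, against 8.49 and 1.97 FPKM in distal libraries, with overlap.

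Of 8 genes of NADPH supply 7 had higher proximal values (60.4% of all genes), with a median of 0.12. Under quantile normalization 6 did. Idh2, the mitochondrial isocitrate dehydrogenase, had the largest difference of this list, at 35.9 and 16.1 FPKM in proximal libraries, against 21.0 and 8.67 FPKM in distal libraries. Taldo1, the transaldolase of the pentose phosphate pathway, stood at 50.7 and 40.8 FPKM in proximal libraries, against 38.5 and 25.7 FPKM in distal libraries, higher in both proximal ones. Pgd, an NADPH-producing enzyme of that pathway, stood at 19.9 and 34.6 FPKM in proximal libraries, against 26.1 and 34.4 FPKM in distal libraries. Of 9 haem and iron genes 8 had higher proximal values (60.4% of all genes), with a median of 0.19. Under quantile normalization 7 did, and under median ratio scaling 6. The ferritin chains, which store the iron that haem oxygenase releases, had the highest levels of this list, with Fth1 at 2102 and 2475 FPKM in proximal libraries, against 2276 and 2035 FPKM in distal libraries, and Ftl1 at 1321 and 1904 FPKM, against 1367 and 1688 FPKM. Blvrb, a biliverdin reductase, stood at 33.6 and 34.7 FPKM in proximal libraries, against 27.6 and 21.2 FPKM in distal libraries, higher in both proximal ones. Slc48a1, a haem transporter, stood at 37.0 and 21.1 FPKM in proximal libraries, against 27.3 and 11.6 FPKM in distal libraries. Ftl1 was higher in number 3 within both regions and Fth1 in proximal stroma alone.

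Among 13 other Nrf2 targets tested, a list that counts Gsta4 again, 11 had higher proximal values (60.4% of all genes), with a median of 0.32. Under quantile normalization 9 did. Ugdh, which makes UDP-glucuronate, had the largest negative difference, at 53.0 and 629 FPKM in proximal libraries, against 223 and 549 FPKM in distal libraries, with proximal 2 low. Of 9 tested oxidant-producing and copper-delivery genes, 7 had higher proximal values (60.4% of all genes). Cyba, a subunit of NADPH oxidases, stood at 122 and 117 FPKM in proximal libraries, against 102 and 81.7 FPKM in distal libraries. Nox1 and Ncf1 were listed at 0 in all libraries. Of 8 selenoprotein supply genes, 5 had higher (60.4% of all genes) and 3 lower proximal values (39.6%). These counts were 4 and 4 under quantile normalization and 3 and 5 under median ratio scaling.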

How the data were processed

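Each deposited table lists, per the file headers, an FPKM estimate for every transcript, its bounds and a coverage signal. Per the labels' protocols, cDNA was made with the SMART-Seq v4 kit, which does not mark strand, and sequenced on an Illumina HiSeq. bcl2fastq 1.8.3, TopHat2 0.6, Cufflinks 0.0.6 and mm10 are named in the submitters' processing notes, with no settings. FPKM holds no counts and total fragments are not given, so the depth of a library is unknown. Relative depth, read as the ratio of the deposited coverage signal to FPKM, had library medians of 5.22 to 6.34, and the deposited bounds spanned a median of 6.4% to 7.14% either side of the FPKM value between 10 and 100 FPKM.

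Of 63241 transcripts, 55609 (87.93%) received a gene name from their position in GENCODE M21 (same assembly), by span overlap times length similarity of at least 0.8, by both ends within 100 bp of exons of 1 gene, or by a similarity of at least 0.5 with any other gene under 0.25. FPKM was summed per gene. Genes with a failed or capped estimate (7 at the same minimum) and unnamed features (228) were left out. Genes with 1 FPKM in at least 2 libraries were tested as log2(FPKM + 1) with limma 3.58.1 in R 4.3.3, a model with region alone, moderated variances with an intensity trend, two-sided tests, Benjamini-Hochberg adjusted over 11271 genes, threshold 0.05. The rest was done in Python 3.11.15 (pandas 2.3.3; numpy 2.4.6; plots with matplotlib 3.10.9). All 10 members are named in every library. Of each pathway list, the rule was to name the 3 genes with the largest difference and the 2 most abundant. Some of these are not printed, and others (Slc7a11, Mgst3, Nox1, Ncf1) were chosen after their values were seen. Nfe2l2, Keap1, Bach1, Mafg, Maff and Mafk were always to be named, and Cul3 was named outside the rule. Promoter windows are RefSeq's, of 300 bases. The members and lists were chosen with earlier results of these data known. Alternatives were another pseudocount, no filter, other scalings, a block, 1 library left out, no trend, 1 transcript per gene and keeping failed genes.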

Additional observations from a re-analysis of the deposited data

How the results depend on the processing

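No member passed the test in the fit as reported. Its count stayed at 0 with a pseudocount of 0.1, no filter, quantile normalization, median ratio scaling, no trend, 1 transcript per gene and failed genes kept, and every member kept its direction under these 7. Quantile normalization moved the median of all genes to -0.03 from 0.09 and median ratio scaling moved it to 0.02.

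Libraries of the same number deviated together (r = 0.815 across genes), but there are only 2 numbers and no label gives the pairing a meaning. With the number as a replicate block, 313 of the 11271 genes passed with higher proximal and 151 with higher distal values (limma). Among them were 3 of the 10 members (Sod3 at 2.50, Nqo1 at 1.22 and Sod2 at -1.17, adjusted p = 0.00255, 0.0172 and 0.0155, limma). Of the 101 tested pathway genes 5 passed (Gsta3, Gsta4, Gstt1, Mgst3, Aldh3a1).

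A fit that leaves out 1 library mixes region with number and sets 1 library against 2: the lone library is assumed to vary like the other region's pair, so these counts say little about stability. It called 0 to 36 genes with higher proximal and 0 to 5 with higher distal values, 0 to 1 pathway genes (Gsta3, without distal replicate 2) and 0 members. The log2 difference turned for Hmox1 (-1.68 without proximal replicate 3, -1.41 without distal replicate 2, up to 2.49), Gclc (-0.52 to 0.48), Gclm (-0.68 to 0.29), Txnrd1 (-1.89 to 0.87) and Srxn1 (-1.28 to 0.092). Gclc turned without distal replicate 3 (0.41) and without proximal replicate 2, Txnrd1 likewise (0.38 without distal replicate 3), and Gclm and Srxn1 without proximal replicate 2. The median of the members ranged from -0.62 to 0.51. The cause of these shifts was not tested. The direction did not turn for Sod3 (2.20 to 2.79), Nqo1 (0.88 to 1.55), Sod2 (-1.66 to -0.69), Gpx3 (-0.93 to -0.53) and Sod1 (0.0037 to 0.54).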

Other observations

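A pair of other genes separated by library number as Hmox1 and Txnrd1 did (chosen after their values were seen). Sesn2, a stress-induced inhibitor of mTORC1 signalling, stood at 10.6 FPKM in proximal 2 and 101 FPKM in proximal 3, against 13.7 FPKM in distal 2 and 51.0 FPKM in distal 3. Gsto1, a transferase of the omega class, stood at 37.7 and 244 FPKM in proximal libraries, against 36.8 and 133 FPKM in distal libraries. Both were more than 3-fold higher in number 3 within both regions. Hypoxia response genes also had a positive median of number 3 minus number 2 (1.05, 8 genes tested), against -0.33 for all tested genes.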
